A study of Mus musculus with 4 samples.

Results

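MHC class II molecules are surface proteins that hold fragments of engulfed proteins and show them to helper T cells. Each is a dimer of an alpha and a beta chain, built on the invariant chain Cd74, loaded with help of the H2-DM dimer, and switched on by the transactivator Ciita, which binds no DNA itself but joins a complex of factors seated on class II promoters. In the epidermis the class II-bearing cells are chiefly Langerhans cells, dendritic cells marked by the lectin langerin (Cd207). In mice they seed the skin before birth and gain class II and langerin only afterwards, and keratinocytes themselves make class II when exposed to interferon gamma.

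The genes examined were 8 of this system, namely the chain genes H2-Aa, H2-Ab1 and H2-Eb1, the loading genes H2-DMa and H2-DMb1, Cd74, Ciita and Cd207, chosen by name. They were read by 10 of the 39426 non-control probes on the array, out of 30340 genes or targets in all. Keratinocytes from whole skin of newborn C57BL/6 mice were cultured for 3 days and then kept for 48 h with or without 1 mM CaCl2, the usual trigger of keratinocyte differentiation. Cells of the genotype Pla2g2f+/+ and cells of the genotype Pla2g2f-/-, which by their label lack this secreted phospholipase A2, were each measured without and with calcium; the signals below are given in that order, +/+ first. RNA was pooled from 6 mice per genotype and each of the 4 combinations was hybridised to 1 array, so there was no spread between replicates, no test was made of any comparison, and an effect of genotype cannot be told apart from one of the pooled preparation. Pla2g2f itself was well above background on every array, at 259.1, 333.0, 210.6 and 285.6 intensity units. Without and with calcium it differed in −/− cells by −0.43 and −0.49 log2 (scanner errors 0.23 and 0.22). The labels do not say which part of Pla2g2f was deleted, so a probe outside that part would check nothing, and the genotypes of all comparisons below rest on the labels. Errors below are the scanner software's own error of a spot, carried to the log2 scale.

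The label of the group held only in part. H2-Ab1, H2-Eb1, H2-DMa, H2-DMb1, Cd74 and Ciita, 6 of the 8 genes, exceeded background clearly on each of the 4 arrays, by the scanner's criterion (called well above background). H2-Aa was so on 1 array and Cd207 on none, so the arrays gave no measured level of the gene that defines Langerhans cells. On each array 67.0% to 68.6% of all probes were well above background.

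H2-Ab1 was read by 2 overlapping probes, placed by the files on chromosome 17 at 34406305 to 34406363 and at 34406296 to 34406355 (mm9), which share 51 bases and differ at a single one of them. Counted from the 5′ end of the brighter probe, the substitution is C42T. The 30 bases around it are shown for both probes, with the differing base in capitals, because the 2 probes are the only pair here that read nearly the same stretch.
H2-Ab1 brighter probe: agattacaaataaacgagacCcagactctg
H2-Ab1 second probe: agattacaaataaacgagacTcagactctg
The H2-Aa probe (chromosome 17, 34421285 to 34421344, mm9) starts at base 227 of its transcript and has 1 reading frame without a stop codon.
H2-Aa probe: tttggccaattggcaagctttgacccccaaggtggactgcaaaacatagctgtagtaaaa

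Class II genes are known for a shared promoter layout, an X box followed by a Y box, on which the Ciita complex sits. Promoter sequences from RefSeq (GRCm38.p6) were found for H2-Aa, H2-Eb1, H2-DMa, H2-DMb1 and Cd207, and not for H2-Ab1, Cd74 or Ciita. The 250 bases before the start site were searched on both strands for an X box pattern of 13 letters, for TGATTGG (Y box) and for TGACGTC (the core of a cyclic AMP element). These letters were settled on with the class II promoters in view, so their presence there is no independent result. The Y box letters were in 7.23% of 32851 promoters, the TGACGTC core in 2.78% and the X box letters in 0.0274%. H2-Eb1 and H2-DMb1 held both X and Y, with 20 and 21 bases between them, and they were the only 2 promoters of the table that did. H2-Aa held the Y box letters after a full palindromic TGACGTCA. Neither H2-DMa, which has 2 promoters in the table, nor Cd207 held any of the 3. The search allowed no mismatch at the fixed letters of a pattern. A diverged box would be missed, so a promoter without a match is not shown to lack the box. The stretch from 10 bases before the first match to the start site is shown for the 3 genes with a match, boxes in capitals.
H2-Eb1, chr17:34305763-34305866, plus strand: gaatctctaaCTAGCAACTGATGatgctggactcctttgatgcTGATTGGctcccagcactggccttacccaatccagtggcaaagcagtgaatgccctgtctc
H2-DMb1, chr17:34153084-34153190, plus strand: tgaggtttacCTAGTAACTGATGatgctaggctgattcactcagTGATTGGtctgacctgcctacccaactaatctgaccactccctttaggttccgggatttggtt
H2-Aa, chr17:34287824-34287907, minus strand: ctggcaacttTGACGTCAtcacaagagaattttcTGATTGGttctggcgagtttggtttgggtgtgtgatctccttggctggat

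H2-Ab1 encodes the beta chain of the I-A molecule. Its signal was 2411 intensity units in +/+ cells without calcium, 2577 in +/+ cells with calcium, 1606 in −/− cells without calcium and 1892 in −/− cells with calcium. Both −/− arrays lay below both +/+ arrays, and calcium made little difference in either genotype. Relative to each array's 75th percentile, set to 0, the log2 levels were −0.13, −0.09, −0.85 and −0.80 in the same order. The difference between −/− and +/+ cells was −0.72 (scanner error 0.20), or 1.64-fold lower, without calcium and again −0.72 with calcium. The median gene was itself lower in −/− cells, by −0.18 and −0.16, and 89.2% and 92.5% of all genes compared had a higher value than H2-Ab1. The probe with the other base at position 42 gave −0.67 and −0.71. The calcium response was 0.04 log2 in both genotypes, within its scanner error of 0.20. H2-Ab1 was lower in −/− cells under each of the 8 other ways of computing the value. Among these, the 2 other filters on background could not change it, and the authors' value table holds the same signal. Scaled to keratinocyte markers, the differences were smaller, −0.42 and −0.24.

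H2-Aa encodes the alpha chain that pairs with H2-Ab1. Its signal was 55.2, 26.3, 57.8 and 18.2 intensity units on the arrays in the order used above. It was well above background in untreated −/− cells alone, where it stood at −5.64 log2. Against the lowest level that passed on the calcium-treated −/− array, taken as its limit, the bound was −0.71 with calcium, or 1.64-fold lower. With normexp background correction the bound was −0.20. For such a bound the dim array is set to the lowest level that passed the criterion there, here −6.35 log2, or to the gene's reading if that is higher. Untreated +/+ and −/− cells gave almost the same reading, −5.58 and −5.64, although only the −/− spot passed the scanner's criterion. The lowest passing level on that +/+ array was −6.07, so such a level is not the limit of each probe. The levels of the alpha and beta chain cannot be set against each other, since each probe has its own brightness.

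H2-Eb1, the beta chain of the I-E molecule, gave 260.6, 394.9, 270.3 and 297.1 intensity units. The files place its probe at 34453075 to 34453134 of chromosome 17 (mm9). Calcium-treated +/+ cells stood above the other arrays at −2.79 log2, and those 3 lay between −3.47 and −3.34, within scanner error of their neighbours. The calcium response was 0.55 log2 (scanner error 0.22), or 1.46-fold higher, in +/+ cells, where 5.44% of genes had a higher value. In −/− cells it was −0.06 (scanner error 0.22). The response in −/− cells was thus lower by −0.60 log2 (scanner error 0.31), with 97.7% of 19227 genes having a higher value of this difference. It was −0.44 with another background correction, and with 1 array per group it could not be tested. With calcium, −/− cells were 1.60-fold below +/+ cells (−0.68), and without it the difference was −0.08 (scanner error 0.22). The E alpha chain that would complete I-E is known to be silent in the C57BL/6 strain, and its pseudogene probe (H2-Ea-ps) was not well above background on any array, at −8.43 to −7.93 log2.

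**Figure D1:**
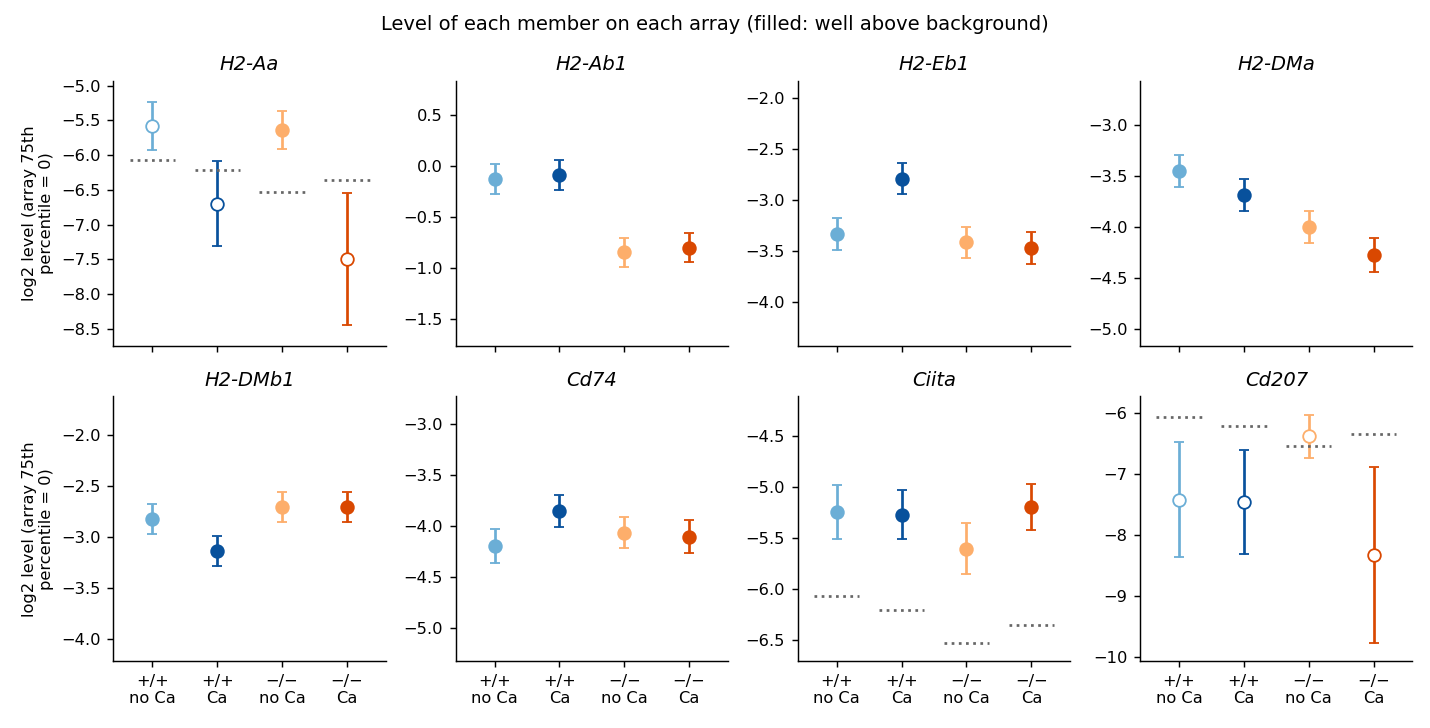
Level of the 8 genes on the 4 arrays, 1 point per array, on a log2 scale where 0 is the array's 75th percentile; each panel has its own range. Bars are the scanner's error, filled points are well above background, and dotted lines mark the lowest level that was well above background on that array. H2-Ab1 is lower on both −/− arrays (−0.85 and −0.80) than on both +/+ arrays (−0.13 and −0.09), and Cd207 has no filled point.

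H2-DMa and H2-DMb1 encode the alpha and beta chain of the dimer that exchanges the invariant chain remnant for antigen peptides. H2-DMa gave 241.3, 212.5, 180.3 and 170.1 intensity units, from a probe whose ends lie 564 bases apart on chromosome 17 (34274300 to 34274863, mm9). The order of its levels was untreated +/+, treated +/+, untreated −/− and treated −/−, each step being larger than its scanner error. In −/− cells it was 1.47-fold lower without calcium (−0.55, scanner error 0.22) and 1.51-fold lower with calcium (−0.59, scanner error 0.23). Scaled to keratinocyte markers those differences were −0.26 and −0.12. Its calcium response was similar in both genotypes, −0.24 in +/+ and −0.28 in −/− cells (scanner errors 0.2187 and 0.2265). With normexp background correction it was −0.216 and −0.1852, within those errors. Scaled to keratinocyte markers it was −0.18 and −0.04.

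H2-DMb1 went the other way between genotypes. Its signal was 374.3, 312.4, 445.1 and 506.6 intensity units (chromosome 17, 34297109 to 34297168, mm9), so that both −/− arrays lay above both +/+ arrays. Without calcium −/− cells were 0.12 log2 higher (scanner error 0.21), which the scanner error covers, and with calcium 0.43 higher (scanner error 0.21), or 1.35-fold. In calcium-treated +/+ cells it was 1.24-fold lower than in untreated ones (−0.31, scanner error 0.21), and in −/− cells the response was 0.00 to 2 decimals. Averaging in its second probe, which was not well above background on any array, turned the difference without calcium to −0.17 and reduced that with calcium to 0.13, within its scanner error. By their brightest probes the 2 chains of the same dimer lay on opposite sides of +/+ cells with calcium, −0.59 for H2-DMa and 0.43 for H2-DMb1. H2-DMb2, a near copy of H2-DMb1, was not well above background on any array. Cross-binding between the copies was not tested.

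Cd74, the invariant chain that escorts class II dimers out of the endoplasmic reticulum, gave 144.3, 190.3, 173.1 and 192.2 intensity units. It had the narrowest range of the 6 measured genes, 0.35 log2 over the 4 arrays. With the arrays sorted by level, no step between neighbours exceeded its scanner error. In +/+ cells the response to calcium was 0.35 log2 (scanner error 0.23), or 1.27-fold higher, and in −/− cells −0.04. Between genotypes the difference was 0.13 without and −0.26 with calcium, the latter turning to 0.22 with scaling to keratinocyte markers.

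Ciita, the transactivator, gave 69.3, 70.8, 59.3 and 90.0 intensity units. It was the dimmest of the 6 in the sense that it came nearest to its arrays' limits, at −5.61 to −5.20 log2 against limits of −6.54 to −6.07. With the arrays sorted by level, no neighbours differed by more than the scanner error, which was 0.33 to 0.36 for its differences. The differences were −0.36 and 0.08 between genotypes without and with calcium, and −0.02 and 0.41 with calcium in +/+ and −/− cells. The last of these exceeded its scanner error of 0.33. Ciita was read by a single probe, whose specificity was not tested.

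Cd207 gave 15.4, 15.5, 34.6 and 10.2 intensity units from a probe on chromosome 6 at 83621442 to 83621501 (mm9). None of these was well above background, and no fold is given.

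Compared as a group, 0 of the 6 genes measured on every array reached 2-fold in any of the 4 comparisons. Where H2-Aa had a bound, it was under 2-fold, which does not settle whether H2-Aa reached 2-fold. Cd207 could not be compared. Among all genes, 3.48% were at least 2-fold different in either direction with calcium in +/+ cells and 3.59% with calcium in −/− cells. Between −/− and +/+ cells the share was 8.97% without calcium and 9.6% with calcium. Against such shares a count of 0 among 6 is near the background and is no result about these genes. The difference of the 2 calcium responses reached 2-fold for 0 of the 6 and for 2.54% of all genes. The median of the 6 measured genes was 0.01 log2 with calcium in +/+ cells, −0.02 with calcium in −/− cells, −0.22 between genotypes without calcium and −0.42 with calcium. Over all genes the medians were −0.07, −0.03, −0.18 and −0.16. With arrays scaled to keratinocyte markers the 6-gene medians between genotypes turned to 0.08 and 0.05, so the side of 0 on which the group lies depends on the scaling, while H2-Ab1 and H2-DMa stayed below 0. Differences beyond 2 scanner errors were found for 1 of 6 with calcium in +/+ cells (H2-Eb1), 0 of 6 in −/− cells, 2 of 6 between genotypes without calcium (H2-Ab1 and H2-DMa) and 4 of 6 with calcium (H2-Ab1, H2-Eb1 and H2-DMa lower, H2-DMb1 higher). With scaling to keratinocyte markers that was 1 of 6 without calcium (H2-Ab1) and 1 of 6 with calcium (H2-DMb1), and H2-Eb1 with calcium was −0.21. With normexp correction it was 0 of 6 with calcium in +/+ cells and 2 of 6 between genotypes with calcium (H2-Ab1 and H2-Eb1). With quantile scaling, median scaling or the mean of probes it was 3 of 6 between genotypes with calcium, H2-DMb1 dropping out. The share of all genes beyond 2 scanner errors was not computed, so none of these counts is a result about the 6 genes. Between genotypes with calcium, 38.1% of all genes compared lay further from 0 than H2-DMb1. For H2-DMa that share was 24.0%, for H2-Eb1 19.0% and for H2-Ab1 17.4%.

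**Figure D2:**
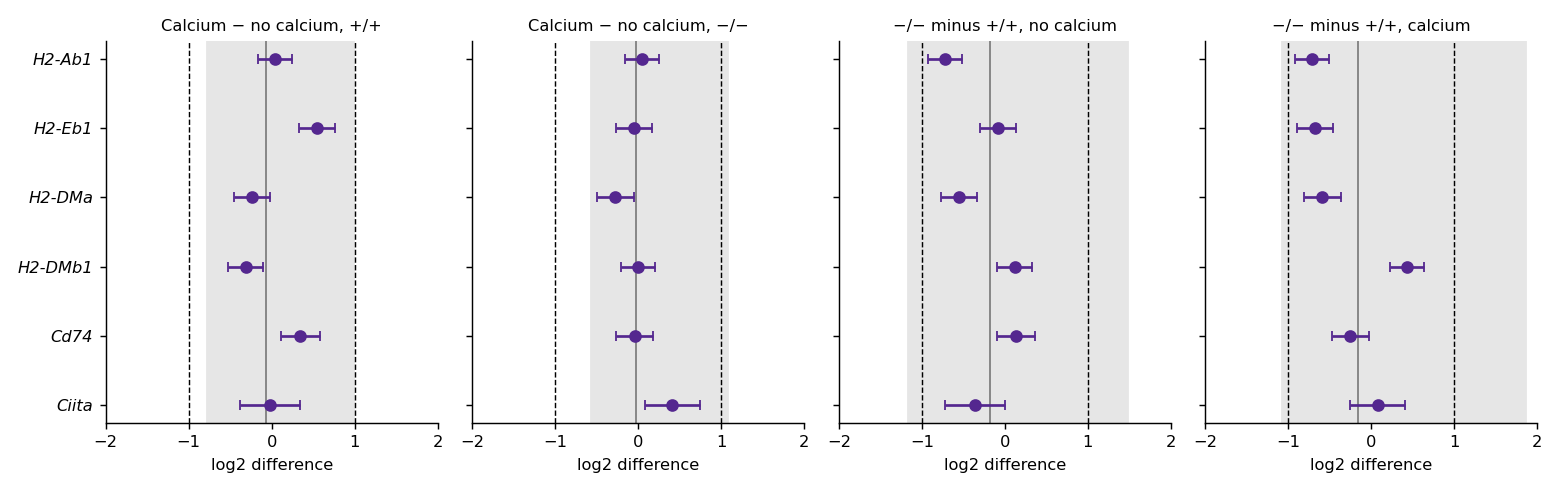
Log2 differences of the 6 genes measured on every array in the 4 comparisons, with the scanner's error as bars. The grey band holds the central 95% of all genes compared, the grey line is their median and dashed lines mark 2-fold; every point lies between the dashed lines, and H2-Ab1 is at −0.72 in both genotype comparisons.

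The 6 genes did not share a common course over the 4 arrays. Their mean course, centred on each gene's own mean, was 0.10, 0.16, −0.14 and −0.13 log2, and the genes lay at a root mean square distance of 0.14 (Cd74) to 0.30 (H2-DMb1) from it. The genes closest to that mean course were Vamp5, Pacsin2, Sh3d19, Zdhhc12 and Sec13, at distances of 0.0041 to 0.011 log2 over 4 arrays. Such a shallow course was common, since 2853 of 14406 other genes lay within 0.1 log2 of it. Likeness to Cd207 was not computed because it was not measured.

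Other genes of class II presentation were mixed. Of 11 partners, 8 could be compared, and at least 2-fold higher in −/− cells were 1 without calcium and 2 with calcium, with medians of 0.06 and −0.07, the latter 0.40 with scaling to keratinocyte markers. The genes past 2-fold were proteases that trim the invariant chain or antigen in endosomes. The 2 probes of the partner Marchf1 disagreed. The brighter one, which was counted, gave −0.17 and −0.90, and the other gave 0.85 and 2.015 log2. Cathepsin S (Ctss), the main enzyme of invariant chain removal in dendritic cells and macrophages, was at 2.09, 1.07, 3.76 and 3.99 log2, both −/− arrays lying above both +/+ arrays. It was 3.17-fold higher in −/− cells without calcium and 7.57-fold higher with calcium, and 2.03-fold lower with calcium in +/+ cells. Legumain (Lgmn), another endosomal protease, was 1.79-fold and 2.65-fold higher in −/− cells. Cathepsin L (Ctsl), the counterpart of Ctss in epithelia, differed by −0.16 and −0.21, and the thiol reductase Ifi30 by 0.20 and 0.21. H2-Eb2, a class II gene next to H2-Eb1, was 3.17-fold higher with calcium in +/+ cells (1.66 log2) and 1.97-fold in −/− cells. H2-Oa and H2-DMb2 were not well above background on any array. Of the 9 genes of the promoter-bound machinery, such as Rfxap, Rfxank, Nfya and Creb1, 8 could be compared and 0 reached 2-fold in any comparison. Rfx5 was not well above background on any array.

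MHC class I presentation, which displays fragments of a cell's own proteins, lay above 0 where H2-Ab1 and H2-Eb1 lay below it. In −/− cells 11 of its 12 genes were above 0 both without and with calcium, with medians of 0.59 and 0.52, and 2 of 12 were at least 2-fold higher in each. The 2 were Nlrc5, the class I counterpart of Ciita (2.31-fold and 3.24-fold), and the immunoproteasome subunit Psmb9 (2.07-fold and 3.40-fold). The 2 probes of Nlrc5 differed, the other one giving 0.06 and −0.09, and the second probe of Psmb9 gave 0.23 with calcium. With the mean of a gene's probes 0 of 12 reached 2-fold in either condition, at medians of 0.56 and 0.56, and with normexp background correction 1 of 12 did without calcium. The light chain B2m was 0.64 and 0.66 higher and H2-K1 0.59 and 0.37. Genes of the interferon gamma axis had medians of 0.59 and 0.40. Of 11 compared, 0 reached 2-fold without calcium and 2 with calcium. Among these was Socs1, a feedback inhibitor (2.06-fold). The count depended on the processing. With normexp correction 0 of 11 reached 2-fold with calcium, and with quantile scaling 1 of 11 did without calcium and 1 of 11 with it. Interferon gamma itself (Ifng) was near the limit, at −6.18 to −5.48 log2, and its chemokine target Cxcl9 was not well above background on any array.

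**Figure D3:**
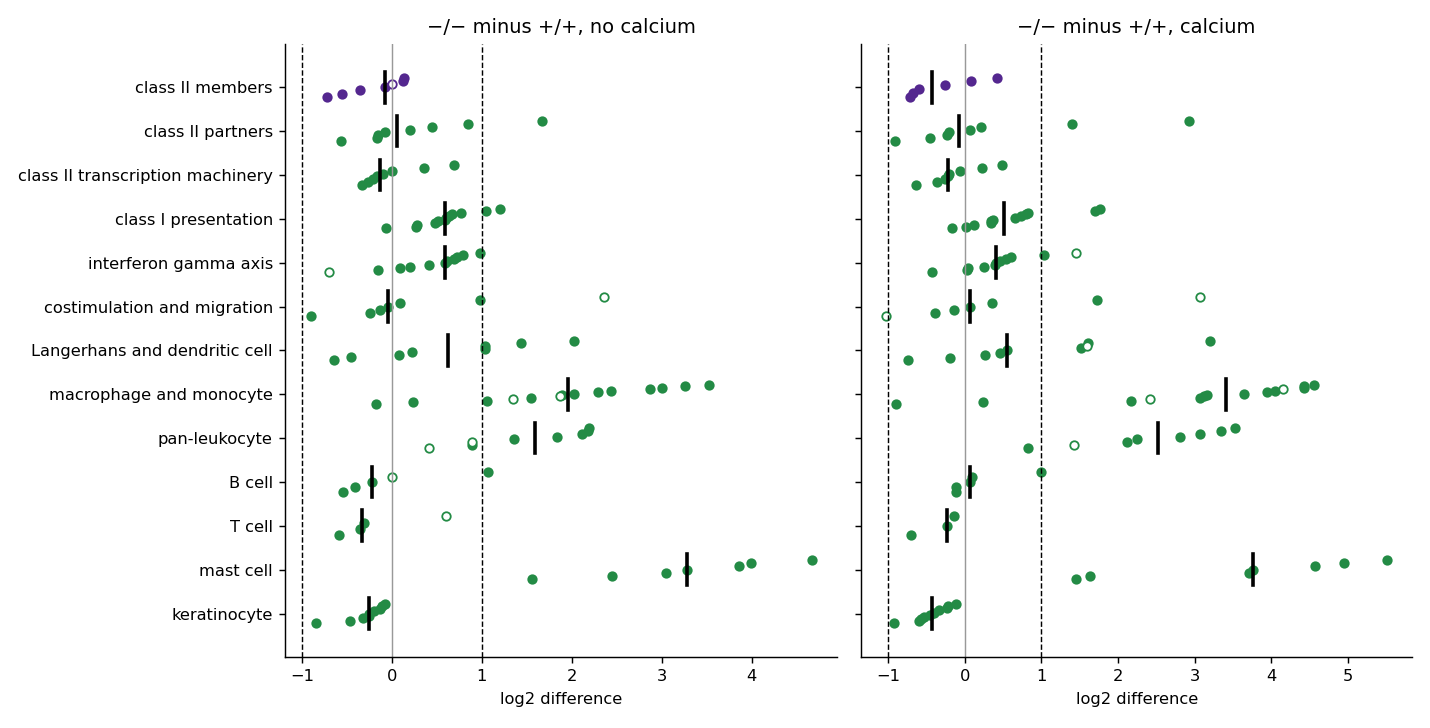
Log2 difference between −/− and +/+ cells for the genes of each list, without calcium on the left and with calcium on the right; filled points were measured on both arrays, open points are bounds, black bars are medians and dashed lines mark 2-fold. The class II genes lie between −0.72 and 0.43, macrophage markers have medians of 1.96 and 3.40, and keratinocyte markers lie below 0. The medians of all genes, −0.18 and −0.16, are below 0 as well.

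Markers of cells that carry class II were read beside these values. Of 14 macrophage and monocyte markers, 12 were at least 2-fold higher in −/− cells in each condition, with medians of 1.96 log2 without and 3.40 with calcium. Their summed signal, relative to each array's 75th percentile, was 8.27, 7.23, 27.2 and 40.8. Among them the mannose receptor Mrc1 was 7.31-fold and 23.5-fold higher and the complement gene C1qa 9.54-fold and 21.5-fold. Not past 2-fold were Cd14, at 0.23 and 0.23 log2, and Itgam, at −0.17 and −0.89. The probes of Itgam disagreed with calcium, the highest giving 0.30. Csf1r was counted by its brightest probe, and its lowest probe gave 0.08 and 0.04. Of 8 markers shared by leukocytes 5 were at least 2-fold higher without and 7 with calcium, among them the signalling adaptor Tyrobp (2.18 and 3.52 log2 higher). Of 7 genes of costimulation and migration compared, 1 was at least 2-fold higher in −/− cells without calcium, and 2 were higher and 1 lower with calcium, at medians of −0.04 and 0.07. The costimulatory gene Cd86, which antigen-presenting cells need to activate T cells, was not well above background in +/+ cells and was at least 5.14-fold and at least 8.43-fold higher in −/− cells. The T cell inhibitor Cd274 was 1.97-fold and 3.31-fold higher. Ccr7, the receptor that guides dendritic cells to lymph nodes, was lower in −/− cells, at −0.91 log2 without calcium and at least 2.04-fold with it. Ccr7 was dim, at 92.4, 83.9, 54.0 and 49.6 intensity units, and not well above background in treated −/− cells. With normexp correction its bound with calcium did not reach 2-fold. The other 4, Cd40, Cd80, Icam1 and Pdcd1lg2, lay between −0.39 and 0.35. Measured in the same RNA, H2-Ab1 and H2-DMa were lower in −/− cells, H2-DMb1 was higher with calcium, and Cd74 differed by 0.13 and −0.26 log2, or 0.43 and 0.22 with scaling to keratinocyte markers. In such bulk RNA, fewer cells of a type and less RNA per cell cannot be told apart. The part of macrophage RNA in the class II values was not tested.

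Markers of Langerhans and dendritic cells divided. Of 14 listed, Cd207, Ly75, Cd209a, Clec9a and Xcr1, which define Langerhans cells or dendritic subsets, were not well above background on any array. Of the 8 compared without calcium 4 were at least 2-fold higher in −/− cells, and of the 9 compared with calcium 4, with medians of 0.63 and 0.55. They included Irf8 (4.07-fold and 9.16-fold), Batf3 (2.71-fold and 3.05-fold) and the lipid-presenting molecule Cd1d1 (2.05-fold and 2.88-fold). The integrin Itgax was well above background in treated −/− cells alone. Flt3 and Zbtb46, a receptor and a transcription factor of classical dendritic cells, were not higher in −/− cells by their brightest probes (−0.65 and −0.46 without calcium). The summed signal of the list was 2.02, 2.78, 3.74 and 5.21, and it includes Epcam and Id2, which keratinocytes also express. B cell markers, from another class II-bearing cell, had medians of −0.22 and 0.07. Among them Ms4a1 and Cd79b were not well above background on any array, and Blnk was 1.07 log2 higher without calcium and at the 2-fold line with it. T cell markers had medians of −0.33 and −0.23 and mast cell markers 3.28 and 3.77. All 9 keratinocyte markers compared without calcium and all 10 with calcium were below 0 in −/− cells, with medians of −0.26 and −0.43. The medians of all genes were also below 0, at −0.18 and −0.16. The part of the keratinocyte markers in the differences was not tested.

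The median calcium responses of the macrophage markers were on opposite sides of 0 in the 2 genotypes. In +/+ cells the 12 macrophage markers compared had a median response of −0.32 log2 and in −/− cells the 14 compared had 0.78. Single markers did not all follow, since 2 of the 12 were above 0 in +/+ cells and 11 of the 14 in −/− cells. Marco, a scavenger receptor, was at −3.99, −4.55, −2.93 and −1.39 log2, which is 1.48-fold lower with calcium in +/+ and 2.91-fold higher in −/− cells. For H2-Ab1, H2-Eb1, H2-DMa and H2-DMb1, the chain and loading genes measured on all arrays, the responses lay between −0.31 and 0.55 in +/+ and between −0.28 and 0.04 in −/− cells. Whether the responses of the 2 sets differ could not be tested with 1 array per group.

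**Figure D4:**
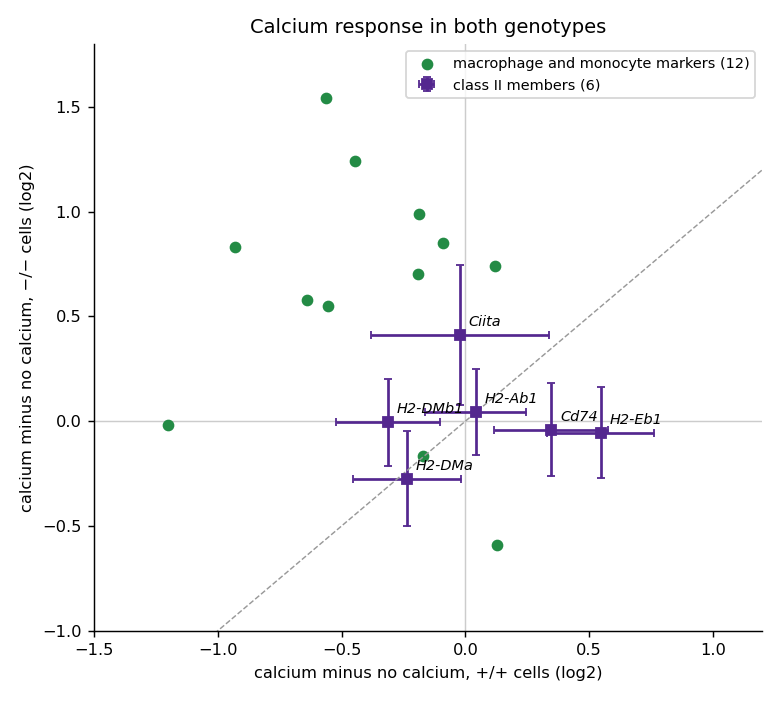
Log2 response to calcium in +/+ cells (horizontal) and −/− cells (vertical) for the 6 class II genes measured on all arrays (squares, bars are the scanner's error) and the macrophage and monocyte markers measured on all arrays (circles); the dashed line marks equal responses. H2-Eb1 lies to the right (0.55 in +/+ and −0.06 in −/− cells), and most macrophage markers lie above 0 in −/− cells and below 0 in +/+ cells.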

How the data were processed

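The 4 arrays are Agilent 1-colour expression arrays. Per the file headers, the authors made the deposited intensity values with Agilent Feature Extraction (version 11.5.1.1), which detrended each array for background and spatial gradients; arrays were not scaled to each other. The authors' value table holds a ratio, each deposited signal over its array's 75th percentile, which the scanner signals gave back to within 3.3e-07 log2 after centring. Its column medians were 0.066, 0.0623, 0.0612 and 0.0645.

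Levels are log2 signals less the 75th percentile of the 43020 spots that are not controls, taken per array. Outlier spots were dropped, none of them a member's, and no member spot was saturated. The percentiles were 2638 to 3299 intensity units. Repeat spots of a probe had a median SD of 0.069 to 0.074 log2, but precision is limited by having 4 arrays. A gene was read from its brightest probe. Of the probes, 27507 were named through their transcript accession by the RefSeq table of GRCm38.p6 and 11919 kept the file's name. A comparison took in genes that passed the background criterion on 1 or both of its arrays, with a bound where 1 side was dim. Differences of 2-fold were counted, with no test. The code was tested on simulated data.

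The members, the 12 lists of 122 entries and the rules were chosen with earlier results of these data known. Named genes were the members and, from each list, genes past 2-fold in the comparison in question, at most 8 a list, largest first. Not all of these are named. Some others (Ctsl, Ifi30, Marchf1, B2m, H2-K1, Ifng, Flt3, Zbtb46, Cd40, Cd80, Icam1, Pdcd1lg2, Ccr7 without calcium, examples of the transcription machinery and genes not above background) were named after their values were seen. So were Csf1r, Cd14 and Itgam. One gene of a list and one probe sequence are not reported here. Alternatives were normexp background correction (offset 50), quantile and median scaling, the mean of probes, the value table, 2 other filters, a 3-fold threshold and, added after seeing the data, scaling to 9 keratinocyte markers. Software was Python 3.11.15 with numpy 2.4.6 and pandas 2.3.3, and R 4.3.3 with limma 3.58.1.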

Additional observations from a re-analysis of the deposited data

How the results depend on the processing

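No paired analysis was possible because each group has a single array and the labels carry no replicate numbers. A 3-fold threshold and a demand for both arrays above background could not raise a count of 0, and the value table holds the same signal. Of 45 recomputed counts of members past 2-fold, which include these settings, 41 stayed at 0. The others came from keeping every gene regardless of signal, which counted 1 member with calcium in +/+ cells (H2-Aa), 2 with calcium in −/− cells (H2-Aa and Cd207), 1 between genotypes without calcium (Cd207) and 1 for the difference of responses (Cd207), all from signals not well above background on at least 1 side. Of 254 recomputed differences of single members, 235 moved by less than the scanner error and 16 changed sign, each of these from a difference under 2-fold. Part of the 254 could not move, since the 2 other filters leave a measured value unchanged and the value table holds the same signal. Scaling to 9 keratinocyte markers raised the median of all genes between genotypes by 0.29 (without calcium) and 0.47 log2 (with calcium). For calcium in −/− cells it raised the median by 0.23 log2. Such scaling shifts all genes of an array by the same amount. The members therefore kept their differences relative to that median by construction, apart from small effects of the bounds, which is no result about them. Keeping every gene lowered the median without calcium by 0.13. With normexp correction 1.85% and 1.6% of all genes passed 2-fold with calcium in +/+ and −/− cells, 3.94% and 6.13% between genotypes without and with calcium and 0.936% for the difference of responses, fewer than with the deposited signal. Keeping every gene gave 1983, 2366, 4314, 3522 and 3844 genes past 2-fold in the same order, against 736, 769, 1914, 2071 and 488. A 3-fold threshold gave 285, 275, 619, 893 and 87. Requiring both arrays above background gave 494 with calcium in −/− cells. Of genes past 2-fold without calcium 51.8% were higher in −/− cells, 74.4% with quantile scaling and 82.2% with keratinocyte scaling; with calcium 68.2%, and 92.8% with keratinocyte scaling. Signal over background limits H2-Aa, Ciita and Cd207 most.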
